A study of Mus musculus with 5 samples.

Results

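The 37 genes described here carry out or supply DNA replication and S phase. They, and the gene lists set beside them, were chosen by symbol from the known roles of their products, with earlier results of these data known. All 37 of the 37 were among the 23022 genes of the authors' deposited table. That table compares the livers of E18.5 mouse embryos. The 4N group held 3 libraries, from embryos in which Hhex was knocked out and which were injected as blastocysts with tetraploid embryonic stem cells marked with td-Tomato. Hhex encodes a homeobox factor needed for liver formation. The WT group held 2 libraries, from normal embryos of the same day. Ploidy, donor origin of the liver cells, loss of Hhex in the host and embryo manipulation thus all went together, and their effects cannot be told apart. The labels do not give the share of donor cells in a 4N liver, and host cells of other lineages, blood included, may remain. Nor do they state litters, so p-values measure only the spread between these libraries, which may be technical. Only the comparison of the groups was analysed here, so no value per library can be shown and the depth of each is unknown.

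A replication origin is licensed in G1, when the origin recognition complex with Cdc6 and Cdt1 loads the ring of Mcm2 to Mcm7 onto DNA, and geminin later blocks Cdt1 so that no origin is loaded again. At the start of S phase the kinase Cdc7 with Dbf4, together with Mcm10, Cdc45 and the GINS complex, turns the ring into a moving helicase, and polymerases alpha, delta and epsilon copy the strands behind it while the clamp Pcna, the clamp loader, the flap nuclease Fen1 and the ligase Lig1 finish them. Genes of this program are known targets of E2F transcription factors. The liver before birth is also a blood-forming organ, so cycling cells in it include red cell precursors as well as hepatocytes.

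For 31 of the 37 genes a window from 250 bases before to 50 bases after the transcription start was present in RefSeq's table for GRCm38.p6. An E2F motif, searched as TTTCCCGC, TTTGGCGC, TTTCGCGC or TTTGCCGC on both strands, was found in the windows of 12 of the 31 genes (38.7%), against 4.09% of the 13953 genes of the comparison with a window. The stretches before the start are shown for 4 genes: Cdc6 and Pcna, which passed the test described below with the lowest adjusted p-values, and Mcm5 and Mcm6, ring subunits with overlapping motifs. Capitals mark E2F motifs and the CCAAT box, searched as CCAAT on both strands. The sequences, given 5′ to 3′ in the direction of the gene, are chr11:98907901-98908150 (plus strand) for Cdc6, chr8:75109259-75109508 (plus strand) for Mcm5, chr1:128359706-128359955 (minus strand) for Mcm6 and chr2:132253181-132253430 (minus strand) for Pcna, all in GRCm38.p6.
Cdc6: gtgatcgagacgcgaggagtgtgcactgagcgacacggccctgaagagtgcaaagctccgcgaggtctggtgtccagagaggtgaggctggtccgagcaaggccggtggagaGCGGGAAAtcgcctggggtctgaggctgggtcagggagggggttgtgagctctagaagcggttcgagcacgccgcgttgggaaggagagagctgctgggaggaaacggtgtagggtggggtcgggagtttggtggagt
Mcm5: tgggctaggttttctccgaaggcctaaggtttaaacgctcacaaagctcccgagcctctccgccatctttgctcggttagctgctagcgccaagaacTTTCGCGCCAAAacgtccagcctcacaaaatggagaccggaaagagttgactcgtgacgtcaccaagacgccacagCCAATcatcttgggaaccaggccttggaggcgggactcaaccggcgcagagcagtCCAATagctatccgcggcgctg
Mcm6: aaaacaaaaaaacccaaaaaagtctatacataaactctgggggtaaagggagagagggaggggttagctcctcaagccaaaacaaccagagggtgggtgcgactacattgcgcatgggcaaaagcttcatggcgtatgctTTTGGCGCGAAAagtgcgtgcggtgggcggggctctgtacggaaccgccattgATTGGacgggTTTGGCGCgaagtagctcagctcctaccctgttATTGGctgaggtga
Pcna: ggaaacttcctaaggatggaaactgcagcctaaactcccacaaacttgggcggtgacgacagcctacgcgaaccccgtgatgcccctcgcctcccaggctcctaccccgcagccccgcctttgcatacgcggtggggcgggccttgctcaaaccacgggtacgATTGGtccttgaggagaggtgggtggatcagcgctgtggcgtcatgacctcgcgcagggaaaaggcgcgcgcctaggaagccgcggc

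Cdc6 had a single E2F motif, on the minus strand and starting at position -138 from the transcription start. In Mcm5 a motif on each strand overlapped to form TTTCGCGCCAAA, and in Mcm6 they formed TTTGGCGCGAAA with a further TTTGGCGC at position -47. Pcna had none of these letters and a CCAAT box on the minus strand. The motif was present in 2 of the 7 called members with a window and in 10 of the 24 members that were not called. Among 16 G2 and M phase genes with a window, 1 held the E2F motif, whereas 11 (68.8%) held TTTGAA, a form of the cell cycle homology region, on either strand, against 6 of the 31 replication genes (19.4%) and 15.6% of the genes of the comparison. In the windows of the members, 0 matches of TTTGAA overlapped another motif searched, and 1 CCAAT match overlapped an E2F motif. A match of letters is a description and does not show that a factor was bound.

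Most replication genes were slightly higher in 4N livers, and few passed the test. The authors' deposited table gave 33 of the 37 (89.2%) a positive log2 fold change (4N over WT) and 4 a negative one, with a median of 0.43, which is 1.35-fold. Over all genes 49.9% were positive, with a median of -0.0010. Since no header says which group was the numerator, the direction was taken from genes without reads in a group, as the processing describes. At the authors' adjusted p under 0.05, by a Wald test with Benjamini-Hochberg adjustment, 9 of the 37 (24.3%) rose, 0 fell and 28 did not pass. Over all 23022 genes 7.94% were called higher and 7.41% lower. Recentring on secreted plasma proteins, which added 0.58 to every log2 fold change, gave 33 of the 37 higher and 0 lower, beside 6773 higher and 851 lower over all genes, and turned the 4 negative members positive. Before it, 15 of these 28 plasma proteins were themselves called lower and 0 higher, with log2 fold changes from -4.07 to 0.30. Recentring on genes whose mean reached 1000 or 10000 shifted values by only -0.02 or -0.05. Which scaling is right was not tested. Of the 37 genes, 34 had a mean of at least 1000 normalized counts over all libraries, and 8 of these 34 (23.5%) rose, against 11.9% of all genes at that level, where 10.3% were called lower. The 9 were Cdc6, Mcm2, Gins2, Gins4, Pcna, Lig1, Rrm1, Rrm2 and Chaf1a, and their log2 fold changes lay between 0.57 and 0.85 by the authors' deposited table. For 8 members, reads may be shared with a pseudogene copy or with a gene opposite at least 20% of their exon bases, named with each member. Other members with smaller overlaps, Rfc4 (13.4%) and Lig1 (6.16%) among them, were kept. Without the 7 of the 8 that have such an overlap or a copy with values here, 5 of 30 were called (16.7%), with a median log2 fold change of 0.37. Without Cdc6 as well, which has an annotated pseudogene whose level was not analysed here, 4 of 29 were called (13.8%), with a median of 0.36. Recentring on genes whose mean reached 1000 ended the call of Chaf1a, and recentring on genes whose mean reached 10000 ended those of Chaf1a, Mcm2, Gins4 and Lig1.

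**Figure D1:**
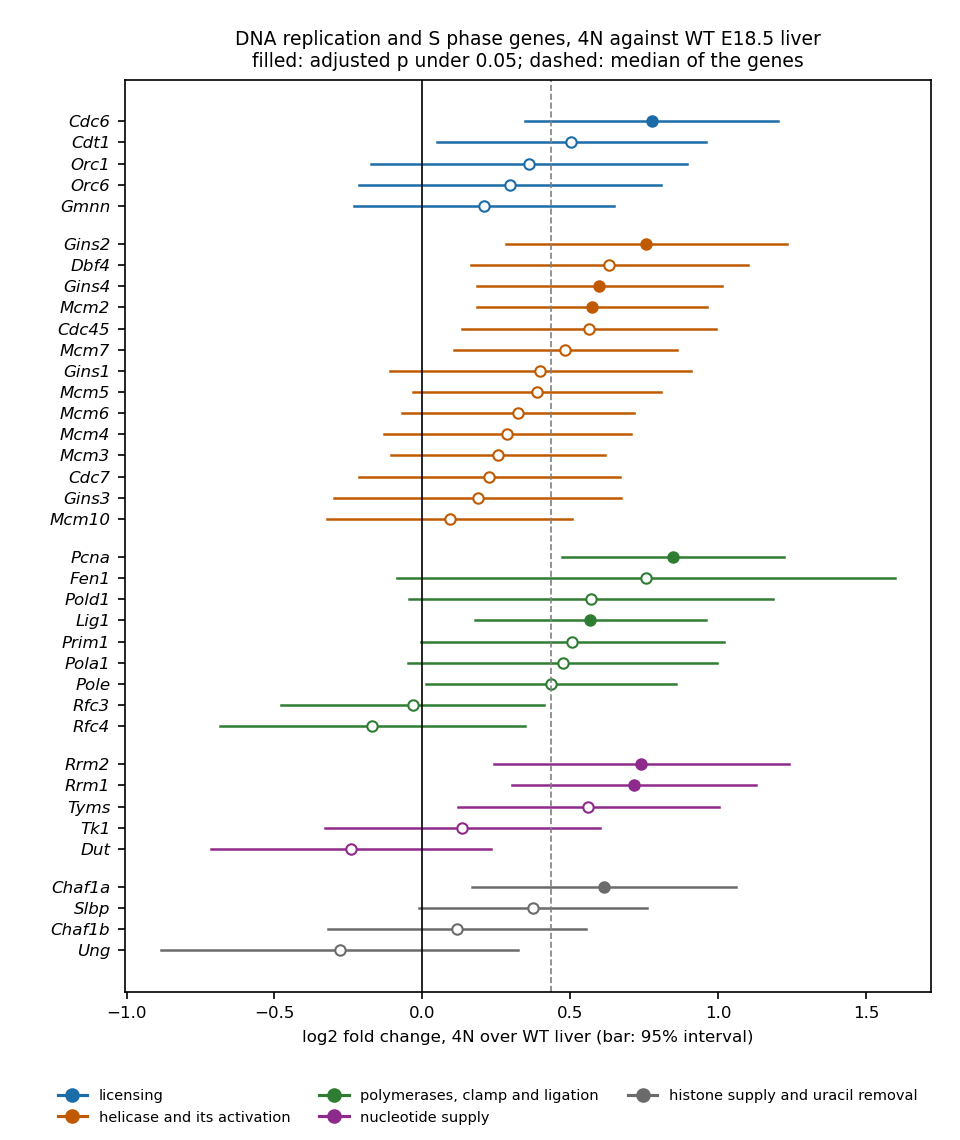
Log2 fold change of each gene (4N over WT liver) with its 95% interval, grouped by role, from the authors' deposited table; filled points had an adjusted p under 0.05 and the dashed line is the median of the genes. All 9 filled points lie to the right of 0.5, the 4 points left of 0 are Rfc3, Rfc4, Dut and Ung (positive after recentring on plasma proteins), and most intervals cross the median line.

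The fold changes of the members spread little more widely than their errors. The log2 fold changes had an SD of 0.28, beside a median standard error of 0.23, and the 95% interval of 32 of the 37 held the median of 0.43. That median comes from the same 37 values, and genes measured in the same libraries may share errors. Neither comparison therefore tests whether the members shifted together. For 25 of the 37 the interval ended below a 2-fold rise. The interval lay wholly above 0 for 15 members, so 6 more than the 9 called, among them Dbf4 (adjusted p = 0.051), Cdc45 (adjusted p = 0.062), Mcm7 (adjusted p = 0.069) and Tyms (adjusted p = 0.073) by the Wald test of the authors' deposited table. By the same Wald test, 3027 of all 23022 genes had a positive value at an unadjusted p under 0.05. With a mean of at least 1000 it was 14 of 34 members, beside 1512 of 8656 genes. No member passed a test against a 1.5-fold change, for which no count over all genes is given here. None passed when a t distribution with 3 degrees of freedom replaced the normal reference of the Wald test (3 of 37 at an unadjusted p under 0.05). That reference gave 0 calls over all genes as well, with 2513 at an unadjusted p under 0.05.

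Licensing genes were all on the higher side, with Cdc6 alone past the test. Cdc6, the ATPase that loads the helicase ring, stood at 4953 normalized counts in 4N livers and 2894 in WT livers, group levels implied by the mean and fold change of the authors' deposited table, and its log2 fold change there was 0.78 (SE 0.22, adjusted p = 0.0044). Its processed pseudogene Gm9430 matches the Cdc6 transcript over 1528 bases at 95.2% identity, so the value is uncertain as far as reads were shared, and the level of Gm9430 was not analysed here. Its partner in loading, Cdt1, stood at 5217 in 4N livers and 3680 in WT livers (0.50, SE 0.23, adjusted p = 0.14 by the authors' deposited table). Geminin (Gmnn), the inhibitor of Cdt1, had 2954 in 4N livers and 2559 in WT livers, a log2 fold change of 0.21 (SE 0.22). The origin recognition subunits Orc1 and Orc6 had log2 fold changes of 0.36 (SE 0.27) and 0.30 (SE 0.26) by the authors' deposited table. The 4 subunits outside the members, Orc2 (-0.08), Orc3 (-0.30), Orc4 (-0.54) and Orc5 (0.24), did not pass either. The point values of Orc1 and Cdc6 lay above those of these 4, a difference that was not tested.

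**Figure D2:**
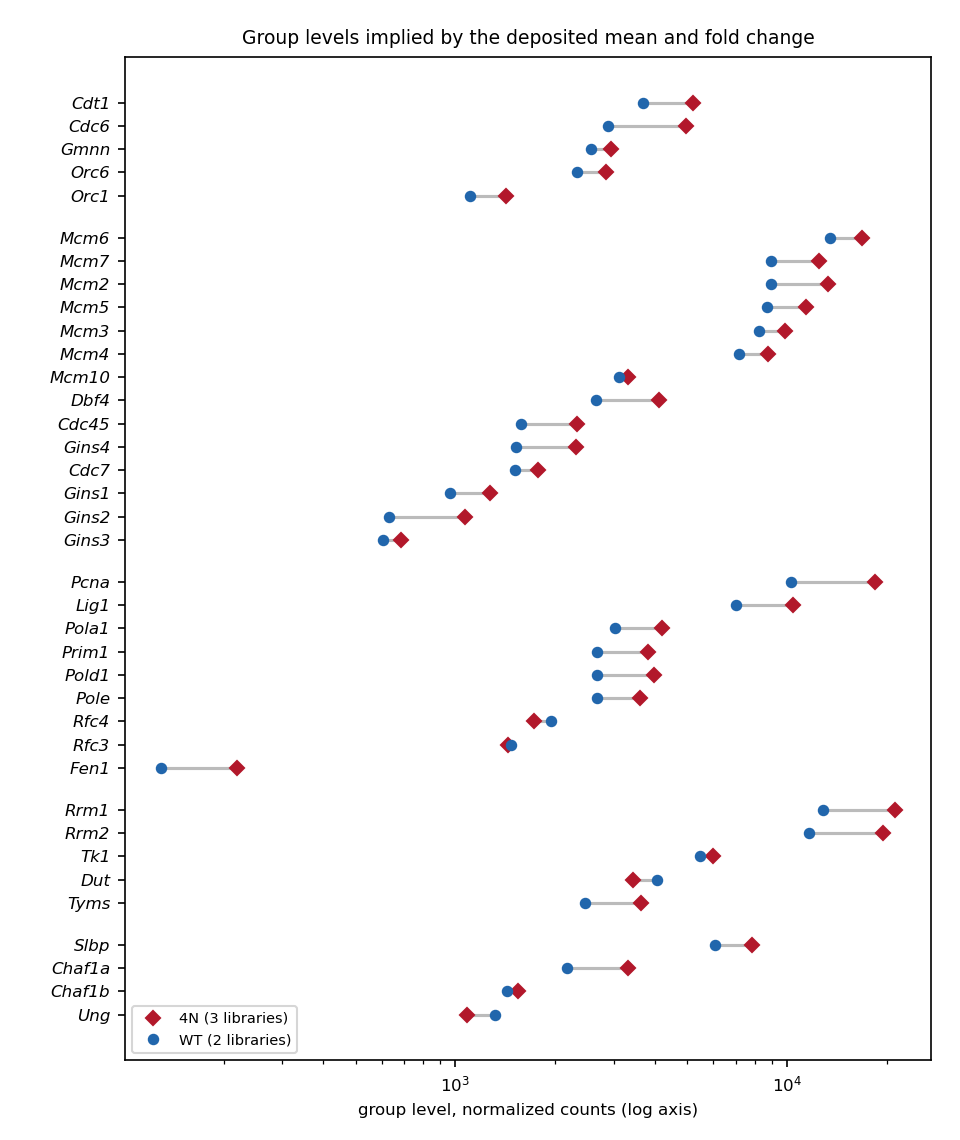
Level of each gene in 4N livers (diamonds, 3 libraries) and WT livers (circles, 2 libraries) in normalized counts on a log axis, implied by the mean and the fold change of the authors' deposited table; no error per group can be given. The 4N level lies right of the WT level except for Rfc3, Rfc4, Dut and Ung, which also lie right after recentring on plasma proteins.

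All 6 subunits of the helicase ring had positive values within a narrow range. Log2 fold changes ran from 0.26 (Mcm3, SE 0.18) to 0.57 (Mcm2, SE 0.20) by the authors' deposited table, with a median of 0.36 and an SD of 0.12, which is below the standard error of each subunit. Subunits measured in the same libraries may share errors, so the narrow range is a description only. Mcm2 alone passed, at 13287 normalized counts in 4N livers and 8928 in WT livers (adjusted p = 0.029 by the authors' deposited table, and 0.055 after recentring on genes whose mean reached 10000). Mcm7 had 12524 in 4N livers and 8961 in WT livers, and Mcm6 had 16855 in 4N livers and 13474 in WT livers. Mcm5 had 11409 in 4N livers against 8720 in WT livers, Mcm4 had 8751 against 7173 in WT livers, and Mcm3 had 9855 against 8249 in WT livers. Every subunit thus had its higher level in 4N livers. Per kilobase of the longest coding transcript, the mean levels of the 6 subunits over all libraries differed by at most 1.66-fold, from 2263 normalized counts for Mcm4 to 3747 for Mcm7. Together the ring subunits summed to 72680 normalized counts in 4N livers and 55505 in WT livers, a ratio of 1.31.

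Among the factors that activate the helicase, Gins2 and Gins4 rose and the values ran from 0.09 to 0.76. Of the GINS subunits, which bind the ring with Cdc45, Gins2 (0.76, SE 0.24, adjusted p = 0.015) and Gins4 (0.60, SE 0.21, adjusted p = 0.034) rose by the authors' deposited table, while Gins1 (0.40, SE 0.26) and Gins3 (0.19, SE 0.25) did not pass. Gins2 had 1067 normalized counts in 4N livers and 632 in WT livers, and Gins4 had 2310 in 4N livers and 1526 in WT livers. After recentring on genes whose mean reached 10000 the adjusted p of Gins4 was 0.060. The value of Gins2 is uncertain because 70.7% of its coding-transcript exon bases lie opposite exons of Gse1, and Gse1 itself was higher (0.80, SE 0.26, adjusted p = 0.018) by the authors' deposited table. Whether reads were counted by strand is not stated in the labels. Dbf4, the regulatory subunit of the Cdc7 kinase, had 4116 normalized counts in 4N livers and 2656 in WT livers (0.63, SE 0.24), and the kinase subunit Cdc7 itself stood at 0.23 (SE 0.22) by the authors' deposited table. Cdc45 (0.56, SE 0.22) and Mcm10 (0.09, SE 0.21), a scaffold of the activated helicase, did not pass.

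Of the 9 genes for synthesis and joining of the strands, Pcna and Lig1 rose. Pcna, the sliding clamp, had 18457 normalized counts in 4N livers and 10264 in WT livers, a difference of 0.85 on the log2 scale (SE 0.19, adjusted p = 1.9e-04) by the authors' deposited table. This value is uncertain. The processed pseudogene Pcna-ps2 matches the Pcna transcript over 781 bases at 99.2% identity and had 111 normalized counts in 4N livers against 3879 in WT livers, a difference of -5.13 on the log2 scale (SE 0.34, adjusted p = 2.1e-49) by the authors' deposited table. Summed over both, Pcna and its copy came to 18568 in 4N livers and 14143 in WT livers, a log2 fold change of 0.39, close to the median of the members. No test of that sum was possible without values of single libraries. The labels do not name the strains of the donor cells or of the WT embryos, and whether a sequence difference between them changed how reads were shared between a gene and its copy was not tested. Mcm7 also has such a copy, Gm5487, which matches it over 2157 bases at 97.7% identity and was lower in 4N livers (-3.78, SE 0.57, adjusted p = 1.6e-09 by the authors' deposited table), at 19.3 normalized counts against 265 in WT livers. Its sum with Mcm7 gave 0.44 in place of 0.48. Copies of Rrm2 (Gm48455) and Slbp (Gm8396) were too low to move the sums by more than 0.01.

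Lig1, which seals Okazaki fragments, had 10423 normalized counts in 4N livers and 7034 in WT livers (0.57, SE 0.20, adjusted p = 0.033 by the authors' deposited table, and 0.060 after recentring on genes whose mean reached 10000). The catalytic subunits of polymerase alpha (Pola1, 0.47, SE 0.27), its primase (Prim1, 0.51, SE 0.26), polymerase delta (Pold1, 0.57, SE 0.31) and polymerase epsilon (Pole, 0.43, SE 0.22) lay close together by the authors' deposited table, and none passed. The clamp loader subunits Rfc3 (-0.03, SE 0.23) and Rfc4 (-0.17, SE 0.26) lay at or under 0. Rfc2 (-0.03), Rfc5 (0.04) and the large subunit Rfc1 (0.31) did not pass by that table either, and thus no subunit of the loader was called. Fen1, which trims fragment ends, had only 219 normalized counts in 4N livers and 130 in WT livers (0.76, SE 0.43, adjusted p = 0.26 by the authors' deposited table). Exons of Gm10143 (mean 75 normalized counts, log2 fold change -0.40, SE 0.61) lie opposite 78.8% of the exon bases of Fen1. Those of the more abundant Tmem258 (mean 2455, log2 fold change 0.76, SE 0.29) lie opposite 5.37%. Both the level and the fold of Fen1 are thus uncertain.

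Of the 5 genes of nucleotide supply, the ribonucleotide reductase genes Rrm1 and Rrm2 rose. The enzyme makes deoxynucleotides from ribonucleotides. Rrm1 had 21092 normalized counts in 4N livers and 12852 in WT livers (0.71, SE 0.21, adjusted p = 0.0073), and Rrm2, its S phase subunit, had 19469 in 4N livers and 11662 in WT livers (0.74, SE 0.25, adjusted p = 0.028), by the authors' deposited table. The thymidylate synthase Tyms (0.56, SE 0.23), the thymidine kinase Tk1 (0.14, SE 0.24) and the dUTPase Dut (-0.24, SE 0.24) did not pass. Dut had 3441 in 4N livers and 4066 in WT livers. Of 13 further deoxynucleotide genes, 1 rose (7.69%), 2 fell and 10 did not pass, with a median of -0.23. Over all genes 7.94% were called higher and 7.41% lower. After recentring on plasma proteins 3 of the 13 were higher and 0 lower, with a median of 0.35. Rrm2b, a further reductase subunit gene, had 0.04 (SE 0.29, adjusted p = 0.96 by the authors' deposited table). Those called were the deoxycytidine kinase Dck (0.68, SE 0.22, adjusted p = 0.018), the serine hydroxymethyltransferase Shmt1 (-0.96, SE 0.20, adjusted p = 2.4e-05), which feeds folate into thymidylate synthesis, and the nucleotide kinase Cmpk1 (-0.72, SE 0.25, adjusted p = 0.025), by the authors' deposited table. Neither fall was called after recentring on plasma proteins, where Shmt1 stood at -0.38 (adjusted p = 0.12) and Cmpk1 at -0.14 (adjusted p = 0.70) by the Wald test on values of the authors' deposited table.

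Of the members for histones and uracil, Chaf1a rose. Chaf1a and Chaf1b are the subunits of the assembly factor that places histones on new DNA, and their log2 fold changes were 0.61 (SE 0.23, adjusted p = 0.046) and 0.12 (SE 0.22) by the authors' deposited table. Chaf1a had 3317 normalized counts in 4N livers and 2168 in WT livers, and its call ended after recentring on genes whose mean reached 1000 (adjusted p = 0.058) or 10000 (adjusted p = 0.076) in the Wald test on values of the authors' deposited table. Exons of Ubxn6 lie opposite 48.6% of its exon bases, and Ubxn6 had a log2 fold change of 0.14 (SE 0.30) by the authors' deposited table. Slbp, which binds replication-dependent histone messages, had 0.37 (SE 0.20), and Ung, which removes uracil from DNA, had -0.28 (SE 0.31). Both missed the threshold.

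**Figure D3:**
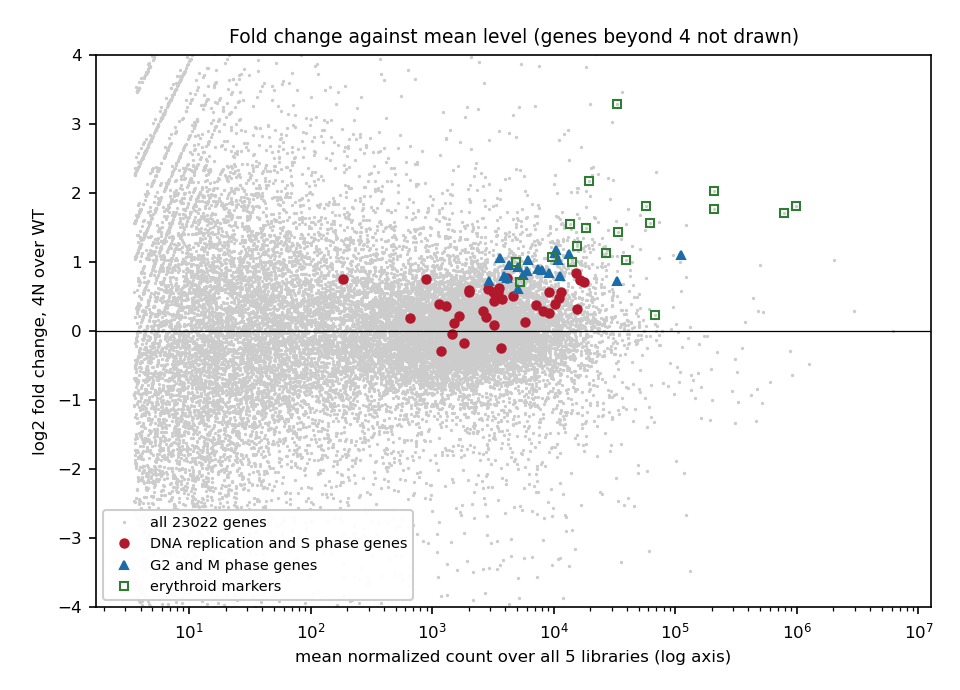
Log2 fold change (4N over WT) against the mean normalized count over all 5 libraries on a log axis, for all genes (grey), the 37 replication genes (red circles), 20 G2 and M phase genes (blue triangles) and 19 erythroid markers (green squares). The replication genes lie between -0.28 and 0.85, the G2 and M phase genes between 0.61 and 1.18, and the erythroid markers between 0.23 and 3.29.

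Of 77 replication genes outside the members, in 5 lists, 9 rose (11.7%), 3 fell and 65 did not pass, with a median log2 fold change of 0.08. The share that rose compares with 7.94% of all genes and 11.9% of those with a mean of at least 1000, so it lay near the background. After recentring on plasma proteins 45 were higher and 0 lower. Ticrr (0.67, SE 0.21), Clspn (0.66, SE 0.21) and Wdhd1 (0.66, SE 0.24), which act at origin firing and at the fork, were the 3 of 17 licensing and helicase genes that rose by the authors' deposited table. By the Wald test on values of the authors' deposited table, the calls of Wdhd1 (adjusted p = 0.0509) and of Pold2 (adjusted p = 0.0504) ended after recentring on genes whose mean reached 1000. In the polymerase list of 24 genes, the topoisomerase Top1 (0.88, SE 0.20, adjusted p = 2.7e-04) and the polymerase delta subunits Pold3 (0.69, SE 0.21) and Pold2 (0.81, SE 0.30) rose, and the polymerase epsilon subunit Pole4 fell (-0.73, SE 0.22, adjusted p = 0.0090), by the authors' deposited table, a fall that was not called after recentring on plasma proteins (-0.15, adjusted p = 0.66). The histone chaperone Asf1b (0.65, SE 0.20) and the maintenance methyltransferase Dnmt1 (0.59, SE 0.20) were the 2 of 12 chromatin genes called. None of 11 S phase checkpoint genes passed by the authors' Wald test, 0 of them even at an unadjusted p under 0.05, with a median of -0.04 that became 0.53, with 3 called higher, after recentring on plasma proteins; the most abundant were the kinase genes Tlk1 (-0.07) and Tlk2 (-0.04).

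Among 22 regulators of S phase entry, which include inhibitors as well as activators, 9 rose (40.9%) and 0 fell, with a median of 0.43. That share therefore gives no direction for S phase entry. Over all genes 7.94% were called higher, and 11.9% of those with a mean of at least 1000. The activator E2f1 had 4071 normalized counts in 4N livers and 1799 in WT livers (1.18, SE 0.29, adjusted p = 7.3e-04 by the authors' deposited table). E2f2 (0.99, SE 0.30), E2f4 (0.66, SE 0.23), E2f8 (0.61, SE 0.21) and the E2F partner Tfdp2 (1.24, SE 0.23, adjusted p = 1.3e-06) rose too by the authors' deposited table, E2f4 not after recentring on genes whose mean reached 10000 (adjusted p = 0.059), and E2f3 (-0.17), E2f5 (-0.29), E2f6 (-0.23), E2f7 (0.50) and Tfdp1 (-0.14) did not pass. Cyclin E genes Ccne1 (0.05) and Ccne2 (0.40) and their kinase Cdk2 (0.34) did not pass. The cell cycle inhibitors Cdkn1c (3.82, SE 0.30, adjusted p = 3.5e-35) and Cdkn1b (0.95, SE 0.22, adjusted p = 2.3e-04) were also among the 9, while Cdkn1a stood at -0.29 (SE 0.39), by the authors' deposited table. Skp2 (0.65, SE 0.22, adjusted p = 0.028) and Fbxo5 (0.65, SE 0.20, adjusted p = 0.010) completed the 9 by the authors' Wald test.

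**Figure D4:**
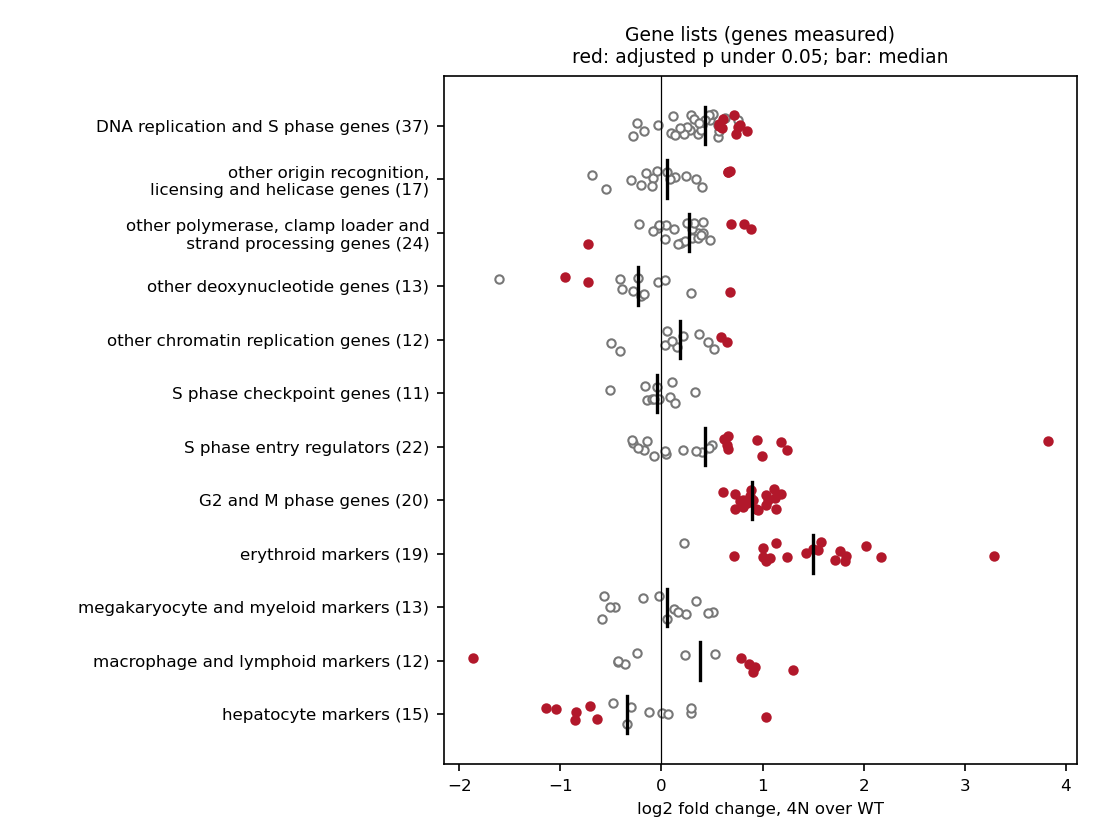
Log2 fold change (4N over WT) of each measured gene in 12 lists, with the number measured; red points had an adjusted p under 0.05 and black bars are medians. The medians were 0.43 for the replication genes, 0.90 for the G2 and M phase genes, 1.5 for the erythroid markers and -0.34 for the hepatocyte markers (0.24 after recentring on plasma proteins). Many of the hepatocyte markers are themselves among those plasma proteins, so that shift is no independent check.

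G2 and M phase genes gave larger values than the replication genes in the same livers. All 20 rose by the authors' Wald test (19 after recentring on genes whose mean reached 10000, without Bub1), beside 7.94% of all genes and 11.9% of those with a mean of at least 1000. Their median log2 fold change was 0.90 against 0.43, and the lowest of the 20, Birc5 at 0.61, lay above 29 of the 37 replication genes by the authors' deposited table. The difference between the lists was not tested. Summed levels were 340294 normalized counts in 4N livers and 172108 in WT livers for the G2 and M phase genes, a ratio of 1.98. For the replication genes they were 222214 in 4N livers and 160009 in WT livers, a ratio of 1.39.

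Erythroid markers were higher in the same comparison. For the counts that follow, 7.94% of all genes were called higher and 7.41% lower. Of 19 measured erythroid markers, 18 rose and 0 fell, with a median of 1.5, and their summed level was 3615180 normalized counts in 4N livers and 1109360 in WT livers. Most of that sum came from the globin genes Hba-a1 and Hbb-bs. By the authors' deposited table the lowest were Tfrc (0.23, SE 0.22, not called) and Gata1 (0.72, SE 0.24). The highest were Trim10 (2.18, SE 0.25) and Hba-a2 (3.29, SE 0.34). Which stage of red cell these values came from was not tested. None of the 19 markers was at 0 in either group. Of 15 hepatocyte markers 1 rose and 6 fell, with a median of -0.34. Afp rose (1.03, SE 0.26, adjusted p = 9.6e-04 by the authors' Wald test). Those that fell were Apoa1, Apoa2, Apob, Serpina1b, Serpina1c and Serpina1d. The most abundant markers, Alb (0.006, SE 0.22) and Trf (0.30, SE 0.20), were not called, so the list did not fall as a whole. After recentring on plasma proteins 5 were higher and 1 lower, with a median of 0.24. Many of these markers, Alb included, are themselves among those plasma proteins, so that shift follows by construction and is no independent check. Of 13 megakaryocyte and myeloid markers 0 were called by the Wald test (2 at an unadjusted p under 0.05), and of 12 macrophage and lymphoid markers 5 rose and 1 fell. In whole tissue, more cycling cells and more RNA of these genes per cell cannot be told apart, and the part of the red cell precursors in the values of the replication genes was not tested. Normalized counts are relative to each library, so a change in total RNA per cell would not appear in them either. All 15 hepatocyte markers were measured, with Alb at rank 1 among all genes by mean count. Hhex had 6753 normalized counts in 4N livers and 4607 in WT livers (0.55, SE 0.33, adjusted p = 0.29 by the authors' deposited table).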

How the data were processed

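RNA of 5 E18.5 livers, 3 4N and 2 WT, was sequenced from poly(A)-selected, random-primed libraries, per the labels' protocols. Reads were placed on GRCm39, as the submitters' processing notes name it. The sources used here do not give the aligner or counter. Per gene, the deposited table lists values for 23022 genes. Its signal is each gene's mean normalized count over the libraries, according to the file's headers and the authors' column names. The log2 fold changes with standard errors, the Wald score (their ratio), the p-values and the adjusted p-values are the authors' own. The score, p and adjusted p were recomputed and matched for all genes. The lowest mean was 3.53, so lower genes had been left out before deposit.

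The numerator is not named. Genes without reads in a group are fitted there at a common floor, which came to 0.188 counts for 606 positive genes and 0.178 for 247 negative ones if fold changes are 4N over WT, but to 0.282 and 0.118 if WT over 4N. The first was used. Group levels were computed from mean and fold change with weights of 3 and 2 libraries, and carry no error.

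Calls are those at the authors' adjusted p under 0.05. Members and lists were chosen with earlier results of these data known. Every member is named. Of the lists of other replication genes and of S phase entry regulators, the called genes with the smallest adjusted p, up to 3, are named, or the 2 most abundant if none passed. The G2 and M phase list and the marker lists are given mainly as counts and medians, and this rule was not applied to them. Further subunits, E2F, cyclin, inhibitor and other regulator genes, and single genes of those lists, were added after their values were seen. Ahsp, Gp1bb and Cd3e were not used. Transcript lengths, overlapping exons and, with blastn 2.17.0, pseudogene copies (at least 95% identity over 300 bases) came from GENCODE M21 on GRCm38, without coordinates. Promoters came from RefSeq. Alternatives changed the threshold, the test, the filter and the scaling. Work was done with Python 3.11.15 (numpy 2.4.6, scipy 1.17.1, pandas 2.3.3, matplotlib 3.10.9). The calling steps were run on fold changes simulated with independent normal errors of the deposited size. Such data cannot check how the Wald test behaves with 3 against 2 libraries.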

Additional observations from a re-analysis of the deposited data

How the results depend on the processing

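The count of 9 called members became 3 at an adjusted p under 0.01, 0 when a t distribution with 3 degrees of freedom was the reference, 0 in a test against a 1.5-fold change, 5 after recentring on genes whose mean reached 10000 and 33 after recentring on the secreted plasma proteins. It was 11 without genes with a mean under 50 and 8 after recentring on genes whose mean reached 1000. Over all 23022 genes, recentring at a mean of 1000 gave 1746 higher and 1796 lower, and at 10000 it gave 1663 higher and 1921 lower. The t reference gave 0 calls over all genes. For the threshold of 0.01, the 1.5-fold test and the filter at 50, no count over all genes is given here. Those member counts therefore have no background beside them. Leaving out Gins2, Chaf1a and Fen1, with at least 20% of their exon bases overlapped, gave 7. Leaving out Pcna, Mcm7, Rrm2 and Slbp, which have a pseudogene copy in the table, gave 7. Leaving out both sets gave 5, and leaving out Cdc6 as well, which has an annotated copy not analysed here, gave 4. All of these exclusions were chosen after seeing the data. The calls lost on recentring were Chaf1a at a mean of 1000, and Chaf1a, Mcm2, Gins4 and Lig1 at 10000. The count of 12 other replication genes called became 4 at an adjusted p under 0.01, 0 with the t reference, 0 against a 1.5-fold change and 45 after recentring on the plasma proteins, where all 45 were higher. That recentring added 0.58 to every log2 fold change, gave 6773 higher and 851 lower genes over the table, moved the median of the members to 1.01, and turned Dut to 0.34, Ung to 0.30, Rfc3 to 0.54 and Rfc4 to 0.41, none of which passed. Before it, 15 of the 28 plasma proteins were themselves called lower and 0 higher. In the other settings no member changed sign. The causes of these moves were not tested, beyond what each setting changes by construction. Leaving out single libraries and fits with other designs were not run, since no value per library was used here. No paired analysis was possible because the groups share no replicate numbers and the table holds no single libraries.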
